A study of Rattus norvegicus with 6 samples.

Results

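The Hox cluster genes are the homeobox transcription factor genes of the HoxA, HoxB, HoxC and HoxD clusters. The group was proposed with earlier results of these data known, and its members were chosen by symbol, as every non-control probe whose gene symbol was Hox followed by a cluster letter and a paralog number. This gave 20 genes of 26903 on the arrays, on 22 of 30367 probes. The count of 26903 holds 15154 matched gene symbols, and each other identifier without a match counts as a gene of its own. Of the 39 Hox genes that RefSeq lists in the rat, the other 19 were not analysed here. Where a gene had a pair of probes, as Hoxc5 did, the probe with the highest mean signal over the 6 arrays stood for the gene.

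Female Wistar pups were injected intraperitoneally on PNDs 3 and 5 with 0.05 mg/kg LPS from Salmonella enterica or with an equal volume of saline, and whole ovaries were taken on PND 7. LPS (lipopolysaccharide) coats Gram-negative bacteria and is sensed by innate immune cells, and the comparison asks how this neonatal immune challenge changes gene expression in the ovary. RNA was measured on 6 single-colour Agilent arrays, 3 of LPS-treated and 3 of saline-treated animals, all of them from 1 slide and 1 scan. The methods describe biological replicates made from ovaries of several animals and litters in each treatment without saying which animals were on which array, so p-values measure only the spread between these arrays.

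Hox genes encode transcription factors that give cells their position along the body axis. Within a cluster, the genes at the 3′ end (low paralog numbers) are generally active earlier and further forward than those at the 5′ end (high paralog numbers). The proteins bind DNA together with TALE homeodomain cofactors of the Pbx, Meis and Prep families, and Polycomb and Trithorax proteins keep the clusters silent or active. In the female tract the 5′ genes of HoxA mark successive parts of the Müllerian duct, from the oviduct to the vagina, and Hoxa11 is known for its role in the uterus.

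The values are log2 signals after subtraction of the array's own 75th percentile, so a value of 0 is a probe at that percentile. A probe was taken as measured on an array where the scanner software flagged it as well above background. Signals of different probes are not comparable with each other, and values are compared between arrays only. The 75th percentile lay between 2824 and 6754 intensity units and 66.3 to 76.0% of spots were well above background. All 9 oocyte markers with a probe (among them Zp3, an egg coat protein, and Gdf9, an oocyte growth factor) and 6 of 7 granulosa markers were well above background on all 6 arrays of the labelled tissue. The arrays of a treatment were not alike. The summed level of 6 adrenal cortex markers was 158 and 211 on saline replicates 2 and 3 and between 1.84 and 3.31 on the other 4 arrays, and that of 10 adrenal medulla markers was 90.0 and 58.1 against 3.16 to 5.98. Of these markers, 5 of the cortex (among them Cyp11b1, an enzyme of glucocorticoid synthesis) and 9 of the medulla (among them Th, an enzyme of catecholamine synthesis) were called lower with LPS. LPS replicate 1 had the lowest summed granulosa level, 18.1 against 54.1 to 78.1 on the other LPS arrays.

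Of the 20 Hox genes, 9 were well above background on all 6 arrays, 4 on some and 7 on none. The 9 were Hoxa7, Hoxb4, Hoxb7, Hoxb8, Hoxc4, Hoxc5, Hoxd4, Hoxd9 and Hoxd10. The genes of paralog numbers 12 and 13 that had a probe were measured on none. Among genes measured on some arrays, Hoxa11 was well above background on the 3 LPS arrays and on no saline array. This pattern was seen in 1.06% of all genes, and the opposite pattern in 0 of 26900. The lowest signal well above background was -4.85, -4.89 and -5.30 on LPS replicates 1, 2 and 3. On saline replicates 1, 2 and 3 it was higher, at -4.61, -4.20 and -4.53. The highest Hoxa11 value with saline, -5.37, lay under all 6 of these signals. With LPS, the value of replicate 1 (-2.06) lay above all 6 of them. That of LPS replicate 2 (-4.29) lay under the signal of saline replicate 2, and that of LPS replicate 3 (-4.61) at or under those of all 3 saline arrays. How far the difference in these lowest signals between arrays set the Hoxa11 pattern was not tested. The other genes measured on some arrays were each measured on a single array, Hoxa2 on saline replicate 2 and Hoxb3 and Hoxd1 on LPS replicate 1. In RNA of a whole organ, fewer cells of a type and less RNA per cell cannot be told apart.

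**Figure D1:**
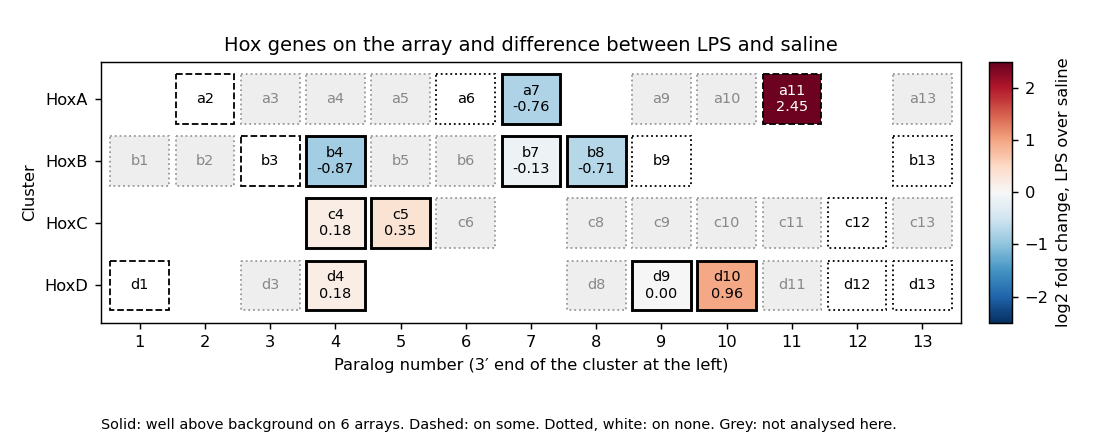
Rat Hox genes by cluster (rows) and paralog number (columns); colour and number give the log2 fold change of LPS over saline for the 9 genes well above background on all 6 arrays and for Hoxa11. Cells of HoxB that carry a number are all negative and those of HoxC and HoxD range from 0.00 to 0.96, with Hoxa11 at 2.45.

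At the study's criterion of at least 2-fold and an unadjusted p under 0.05, 1 Hox gene was called higher in the LPS-treated animals, Hoxa11, and 0 were called lower. The call of Hoxa11 was lost in the methods' t-test, with normexp background correction (0.82), with no background correction (0.45) and with saline replicates 2 and 3 left out (1.71). Over all genes, 0.539% were called higher and 1.03% lower at this criterion. After Benjamini-Hochberg adjustment in limma, 0 of the 20 Hox genes and 0 of the 26903 genes passed 0.05, and the lowest adjusted p of any Hox gene was 0.271. Without saline replicate 1, 247 genes passed, none of them a Hox gene, and with slide row as a block 5 did. Before adjustment, 9 Hox genes had a p under 0.05 (4 in the methods' t-test), of which 2 were higher (2.22% of all genes) and 7 lower (13.7% of all genes). Of those 7, 5 were measured on no array, and among all genes measured on no array 3206 of 6974 were lower at such a p. The other 2 were measured on all arrays, where 382 of 15861 genes were lower at such a p. The median log2 fold change of the 20 genes was -0.06, with 10 above and 10 below 0, and that of all genes was -0.04. Over the 9 genes measured on all arrays the median was 0.00, beside 0.01 for the 15861 genes measured so widely.

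Hoxa11 and Hoxd10 were the Hox genes whose LPS values all lay above their saline values, 2 of 20 beside 4.67% of all genes, while 5 of 20 lay wholly lower, beside 18.2%. Hoxa11, which is needed for the development of the uterus, limbs and kidney, gave -5.37, -6.30 and -6.64 on saline replicates 1, 2 and 3 and -2.06, -4.29 and -4.61 on LPS replicates 1, 2 and 3. In processed signal this was 57.6, 58.5 and 32.0 intensity units with saline and 811, 210 and 225 with LPS. The 3 saline values were not well above background, and LPS replicate 1 stood well above the other LPS arrays. The log2 level was -6.10 ± 0.66 with saline and -3.66 ± 1.39 with LPS (SD, n = 3 each). The fitted log2 fold change was 2.45 (SE 0.70, limma adjusted p = 0.271), the highest of the 26903 genes, although the saline side of it holds no measured level. It ranked 38 without LPS replicate 1, 32 with normexp, 281 with no background correction and 112 with saline replicates 2 and 3 left out. Set against a floor for the saline arrays, Hoxa11 was 1.73-fold higher in the LPS-treated animals. This approximate bound counts each saline array at its lowest signal well above background, or at the probe's own value where higher. It is not a strict limit, because some probes above that signal were not flagged as well above background. Without LPS replicate 1 the bound was 0.997, so that no fold can be stated, and the fitted value was 1.65.

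Hoxd10, a 5′ gene of HoxD known from limb and spinal cord patterning, gave -2.54, -3.45 and -3.06 with saline and -1.56, -2.28 and -2.34 with LPS. The groups did not overlap, although saline replicate 1 and LPS replicate 3 lay only a small step apart. The log2 fold change was 0.96 (SE 0.32, limma adjusted p = 0.271), or 1.94-fold, just under the 2-fold limit. Leaving out 1 array moved it between 0.71 and 1.19, and it passed the 2-fold criterion without LPS replicate 2, LPS replicate 3 or saline replicate 1. It was 0.58 with normexp and 0.39 with no background correction. With 3 arrays against 3, an exact permutation test (two-sided) cannot give a p below 0.1, and any gene whose groups do not overlap has that p. Hoxd10 was the only one of the 9 genes measured on all arrays whose groups did not overlap in either direction, beside 11.2% of all genes measured on all arrays.

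The sequences before the transcription start of these genes are shown because Hoxa11 and Hoxd10 had the highest differences of the measured Hox genes in different clusters, with Hoxa7 as a HoxA gene whose value was below 0. They are the 250 bases before the start from RefSeq (GRCr8), 5′ to 3′ on the strand of the gene. Capitals mark matches, on either strand, to the CCAAT box, to AGGTCA (a core site of retinoic acid receptors), to CACGTG (an E box), to GGGCGG (a GC box) or to the site of NF-kB, the factor that LPS activates through Toll-like receptor 4. In Hoxd10 the first match joins a CACGTG and an AGGTCA (read on the opposite strand) that overlap, and in Hoxa7 the first match is that of NF-kB.
Hoxa11, chr4:82676802-82677051, minus strand: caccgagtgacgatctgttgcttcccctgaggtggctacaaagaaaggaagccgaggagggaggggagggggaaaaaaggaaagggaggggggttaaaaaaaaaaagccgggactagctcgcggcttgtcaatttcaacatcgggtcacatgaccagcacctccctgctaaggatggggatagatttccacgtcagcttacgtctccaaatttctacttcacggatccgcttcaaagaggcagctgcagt
Hoxd10, chr3:80001697-80001946, plus strand: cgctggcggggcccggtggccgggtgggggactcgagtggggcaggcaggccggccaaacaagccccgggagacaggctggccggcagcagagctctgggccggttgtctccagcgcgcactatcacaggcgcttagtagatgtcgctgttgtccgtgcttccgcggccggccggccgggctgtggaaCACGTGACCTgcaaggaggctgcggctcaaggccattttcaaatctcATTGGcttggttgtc
Hoxa7, chr4:82648242-82648491, minus strand: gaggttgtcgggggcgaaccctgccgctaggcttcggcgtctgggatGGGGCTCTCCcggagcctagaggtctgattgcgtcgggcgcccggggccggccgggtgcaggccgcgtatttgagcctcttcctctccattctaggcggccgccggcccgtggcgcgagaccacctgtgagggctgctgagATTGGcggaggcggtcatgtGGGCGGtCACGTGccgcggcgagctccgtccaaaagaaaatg

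A promoter was listed for 11 of the 20 Hox genes. The window of Hoxa11 held 11 CpG dinucleotides and none of the 8 motifs searched, that of Hoxd10 held 21 and that of Hoxa7 held 28, where the median of all 33469 promoters was 5. A CCAAT box stood in 8 of the 11 Hox windows and in 34% of all promoters, and an E box in 4 of 11 and in 5.59%. The core site AGGTCA stood in Hoxc4, Hoxd4 and Hoxd10, and in 14.1% of all promoters. The NF-kB site stood in Hoxa7 and Hoxd1, and in 6.33% of all promoters. The TATA box TATAAA stood in Hoxd13 (12.9% of all promoters), the Cdx site TTTATG in Hoxd4 (11.4%) and TGATNNAT, a site of Pbx with Hox proteins, in Hoxa2 (7.96%). A GC box stood in 5 of the 11 and in 30.5%. These are matches of letters within one short window.

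**Figure D2:**
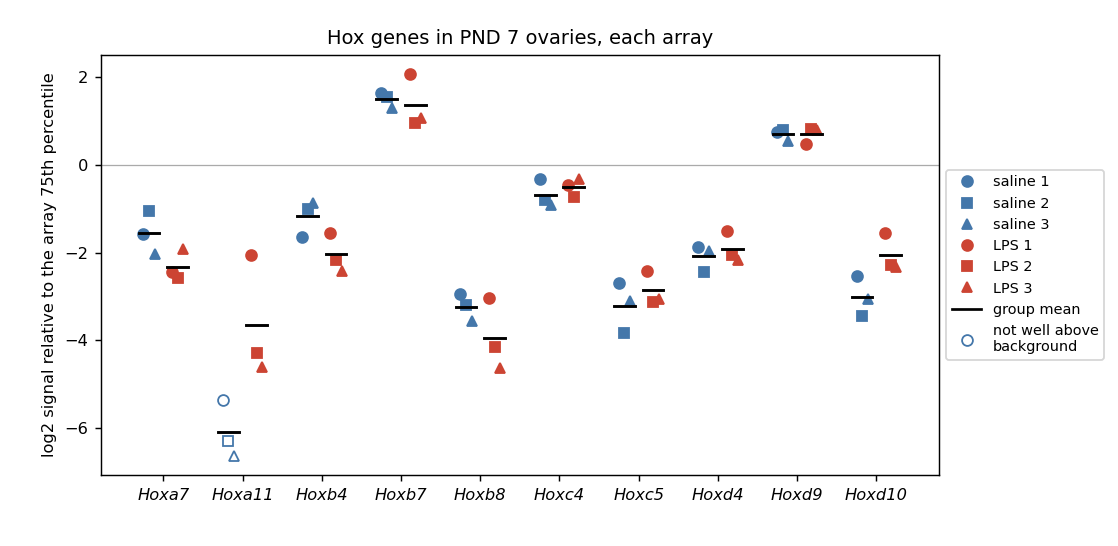
Log2 signal of 10 Hox genes on each array relative to the 75th percentile of that array; circles, squares and triangles are replicates 1, 2 and 3, bars are group means and open symbols were not well above background. LPS values of Hoxa11 and Hoxd10 all lie above their saline values, and LPS replicate 1 is the highest LPS array for 7 of the 10 genes.

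Hoxa7, Hoxb4, Hoxb7 and Hoxb8 had values below 0 and groups that overlapped. Hoxb4, which is known for its role in blood stem cells, gave -1.64, -1.01 and -0.88 with saline and -1.55, -2.16 and -2.42 with LPS. Saline replicate 1 lay within the LPS values. The log2 fold change was -0.87 (SE 0.31, limma adjusted p = 0.274), or 1.83-fold lower, and it passed the 2-fold criterion without LPS replicate 1 (-1.12) or saline replicate 1 (-1.10). Hoxa7, a trunk patterning gene, gave -1.58, -1.05 and -2.03 with saline and -2.44, -2.59 and -1.92 with LPS. Here saline replicate 3 and LPS replicate 3 changed places, and the log2 fold change was -0.76 (SE 0.31, limma adjusted p = 0.292). Without saline replicate 3 it passed the criterion.

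The measured HoxB genes also included Hoxb7 and Hoxb8, neighbours in the middle of the cluster. Hoxb8, known from spinal cord and blood cell development, gave -2.94, -3.20 and -3.57 with saline and -3.04, -4.15 and -4.63 with LPS, a log2 fold change of -0.71 (SE 0.42, limma adjusted p = 0.504). LPS replicate 1 lay among the saline values, and without it the value was -1.16 and passed the criterion. Hoxb7 gave 1.65, 1.54 and 1.30 with saline and 2.08, 0.95 and 1.08 with LPS, so that LPS replicate 1 was the highest of the 6 arrays and the other LPS arrays were the lowest. Its log2 fold change of -0.13 (SE 0.32) was smaller than its error. The 3 HoxB genes measured on all arrays thus had values below 0, but Hoxb7 and Hoxb8 turned to 0.58 and 0.20 with slide row as a block.

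The HoxC and HoxD genes measured on all arrays had log2 fold changes of 0.00 or above. Hoxc4 differed by 0.18 (SE 0.23), Hoxc5 by 0.35 (SE 0.34), Hoxd4 by 0.18 (SE 0.26) and Hoxd9 by 0.00 (SE 0.18), each close to or below its own SE. Hoxd9, the neighbour of Hoxd10 on its 3′ side, gave 0.75, 0.81 and 0.55 with saline and 0.48, 0.83 and 0.80 with LPS. Hoxd9 and Hoxd10 thus lay side by side in one cluster, the first with full overlap and the second with none. No test of the difference between them was made.

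**Figure D3:**
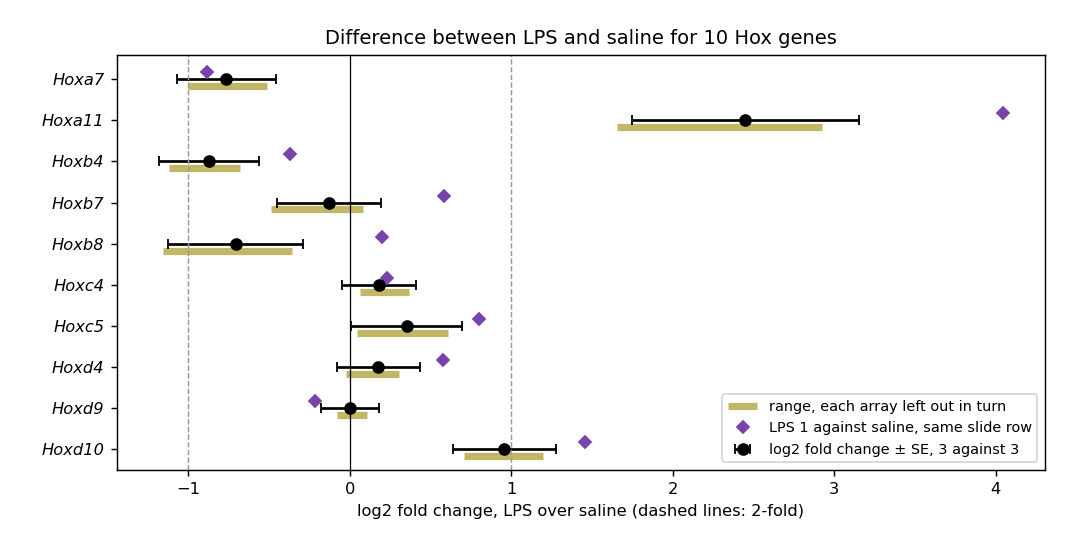
Log2 fold change of LPS over saline with its SE for 10 Hox genes (circles), the range when each array is left out in turn (bars) and the value when LPS replicate 1 alone is set against saline within their shared slide row (diamonds). Hoxa11 stays at 1.65 or above in all of these, and the diamonds of Hoxb7 and Hoxb8 lie on the other side of 0.

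The slide held the 3 saline arrays and LPS replicate 1 in one row and LPS replicates 2 and 3 in the other, so within a row only LPS replicate 1 can be set against saline. With row as a block, which rests on that array, the log2 fold change was 4.04 for Hoxa11, 1.46 for Hoxd10, -0.89 for Hoxa7 and -0.37 for Hoxb4. Under it Hoxa11, Hoxd10 and Hoxb3 were called higher, and Hoxb3 rested on LPS replicate 1, the array on which it was measured. LPS replicate 1 was the highest of the 6 arrays for 8 of the 20 Hox genes (25.3% of all genes) and for 4 of the 9 measured on all arrays (20.5% of genes so measured). In both treatments the array numbered 1 tended to be the higher one. Replicate 1 was the highest within each treatment for 5 of these 9 Hox genes, beside 33.3% of all genes so measured.

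Sums of marker lists also differed between the arrays, and which cells these transcripts came from was not tested. The summed level of 16 Müllerian duct and oviduct markers, such as Pax8, a transcription factor of the duct, and Foxj1, which drives the formation of motile cilia, was 89.8, 33.5 and 44.4 on the saline arrays and 90.8, 53.7 and 51.8 on the LPS arrays. Of these 16 genes 13 were measured on all arrays, 0 were called, and Lhx1, the gene with an unadjusted p under 0.05 in limma, was well above background on none. Saline replicate 1 and LPS replicate 1 had nearly equal sums. The sums are carried mostly by the brightest markers, such as Krt19 (4.70 against 4.66), so equal sums do not show equal levels of each marker. Single markers differed in either direction, as Wnt7a (-0.65 against 0.39) and Emx2 (2.41 against 2.13). Between this pair of arrays Hoxa11 was -5.37 against -2.06, Hoxd10 -2.54 against -1.56, Hoxa7 -1.58 against -2.44 and Hoxb4 -1.64 against -1.55. Hoxb4 was higher on saline replicates 2 and 3, the arrays with adrenal transcripts, than on the other 4. With those saline arrays left out, Hoxa11 differed by 1.71 (limma adjusted p = 0.864), Hoxd10 by 0.48, Hoxa7 by -0.74 and Hoxb4 by -0.41, and no Hox gene was called. In that comparison the lone saline array is assumed to vary like the LPS arrays. Beyond these values, the part of the oviduct, adrenal and granulosa transcripts in the Hox differences was not tested.

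**Figure D4:**
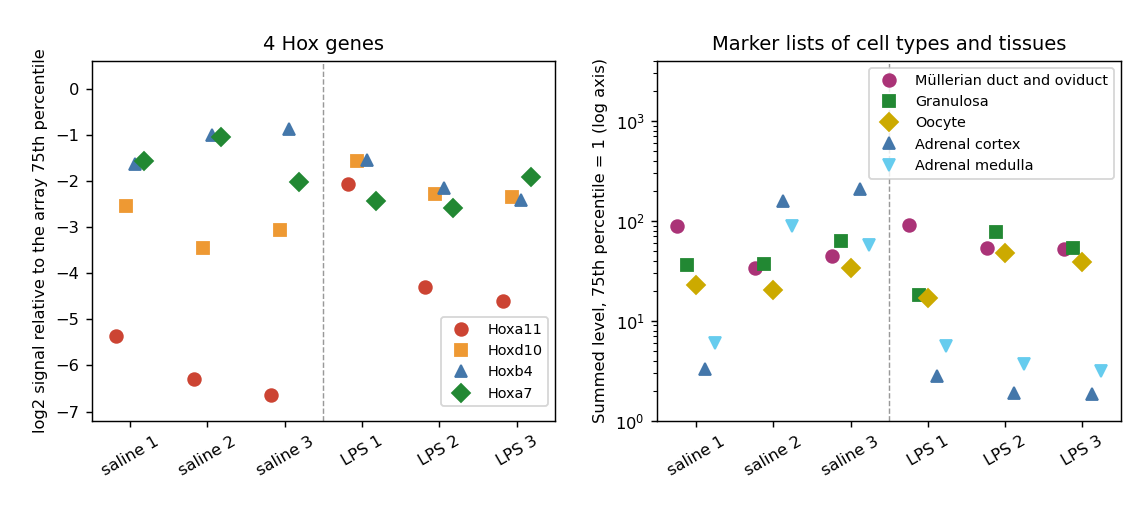
Left, log2 signal of 4 Hox genes on each array relative to its 75th percentile; right, summed level of marker lists on the same arrays (log axis, the 75th percentile counts as 1). Hoxa11 and Hoxd10 are highest on LPS replicate 1, while the adrenal sums are high on saline replicates 2 and 3 and the Müllerian duct sum on both arrays numbered 1.

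The 7 Hox genes measured on no array included Hoxa6, Hoxb9, Hoxb13, Hoxc12, Hoxd12 and Hoxd13, and their signals say nothing about a level. Of these, 5 had LPS values that all lay below the saline values, Hoxa6, Hoxb9, Hoxb13, Hoxc12 and Hoxd13. The same held for 54.8% of the 6974 genes measured on no array, whose median log2 difference was -0.56 of which 5% lay below -0.79 and 5% above 0.27. The 7 Hox values lay between -0.77 and 0.21. The low signals of the LPS arrays thus sat lower on the scale after the 75th percentile was subtracted, in Hox and other genes alike. The second probe of Hoxc5 was measured on no array and adds no level.

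**Figure D5:**
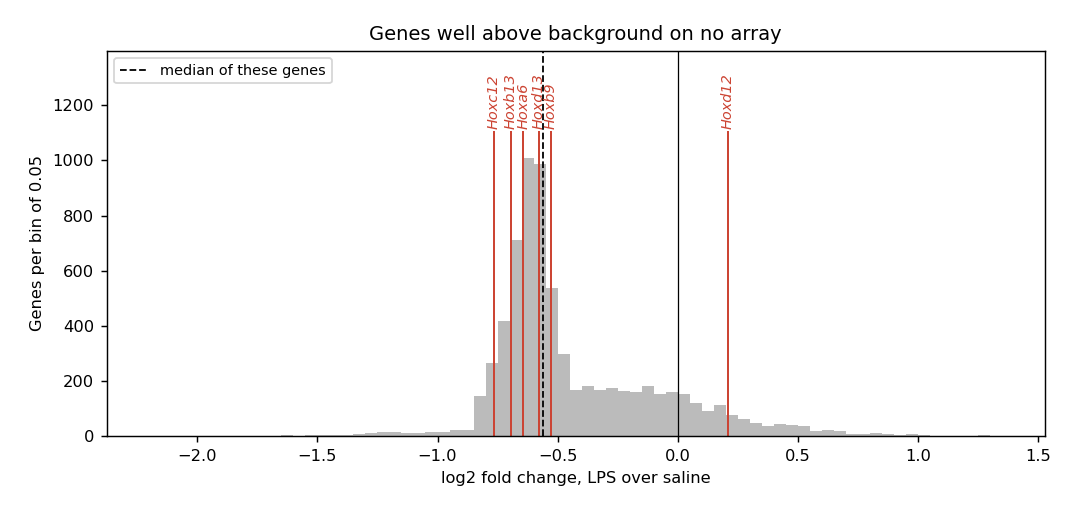
Distribution of the log2 fold change over the 6974 genes well above background on no array (grey, genes per bin) with 6 Hox genes of this kind as red lines. The median is -0.56, and Hoxa6, Hoxb9, Hoxb13, Hoxc12 and Hoxd13 lie in the main peak of the distribution.

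The partners and regulators of Hox genes held no gene that was called, where 0.539% of all genes were called higher and 1.03% lower. Over all genes, 2.22% were higher and 13.7% lower at an unadjusted p under 0.05 in limma. Of the 7 TALE cofactor genes with a probe, 1 had an unadjusted p under 0.05 in limma and 0 were called, with a median log2 fold change of -0.04, beside -0.04 for all genes. Meis1, a cofactor of the 5′ genes, gave -0.04 (SE 0.16). Pbx4 was the cofactor whose groups did not overlap (lower, -0.95, SE 0.30, limma adjusted p = 0.27), and this gene is singled out because of its value. It gave -3.77, -3.07 and -2.82 with saline and -3.81, -4.31 and -4.39 with LPS, so saline replicate 1 lay close to LPS replicate 1. The higher saline values were those of replicates 2 and 3, the arrays with adrenal transcripts. Of the 13 Polycomb, 7 Trithorax and 15 retinoic acid and Cdx genes 0 were called either, with medians of 0.15, 0.00 and 0.04. They had 0, 1 and 2 unadjusted p-values under 0.05 in limma. Of the genes with such a p-value, Ash1l (Trithorax) and Cdx2 were lower but well above background on no array. Aldh1a1 was measured on all arrays and differed by 0.67 (SE 0.26). The Cdx genes with a probe, Cdx2 and Cdx4, which switch on Hox genes in the embryo, were measured on no array.

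Outside the clusters, 52 other homeobox genes had a probe, 20 of them measured on all arrays and 20 on none. Of the 52, 0 were called, with a median of -0.05. There were 10 unadjusted p-values under 0.05 in limma, 1 higher (2.22% of all genes) and 9 lower (13.7% of all genes). Of the 16 nearest protein-coding genes, 13 had a probe and 8 were measured on all arrays, 0 were called, 0 had an unadjusted p under 0.05 in limma and the median was 0.02. Beside HoxA, Skap2 gave -0.11 (SE 0.20) and Hibadh -0.35 (SE 0.20). Beside HoxD, Lnpk had LPS values above all saline values but differed by 0.12 (SE 0.15), and Mtx2 by 0.02 (SE 0.16). Evx1 and Evx2, the homeobox genes that lie beyond the 5′ ends of HoxA and HoxD, were measured on no array. The antisense and microRNA genes within the clusters were not analysed here.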

How the data were processed

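The authors deposited, for each array, spot intensity values from Agilent Feature Extraction 10.5.1.1 with its flags, and a table of the same processed signals. Per the labels, lumi was among the tools used. The deposited intensity values were background-subtracted, with surrogate values for dim spots. The methods state Cy3 labeling, and a genome build is not given in the sources used here.

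Flagged outlier spots were removed, log2 processed signals were averaged by probe and the 75th percentile of each array was subtracted. The treatments were compared over 30367 probes by lmFit and eBayes of limma 3.58.1 (R 4.3.3) with Benjamini-Hochberg adjustment, after the code was tested on simulated data. Probes were named by matching RefSeq accessions to GRCr8, which gave 17998 probes a symbol, and cluster neighbours come from that assembly. Values of every array are given for Hox genes that were called or whose groups did not overlap and that were measured on all arrays of a treatment, and for other measured genes by role. From the lists, called genes, defining markers and Meis1 are named (adrenal genes as counts with an example each), and a few items are not reported here. Summed levels of a list add linear values relative to the 75th percentile. The members, gene lists and motifs were chosen with earlier results of these data known. Arrays with the same replicate number deviated together from their group means (r over probes was 0.298 for number 1, 0.215 for number 2 and 0.254 for number 3). For unlike numbers, r was 0.160 for LPS replicate 2 with saline replicate 3 and 0.068 for LPS replicate 3 with saline replicate 2. Pairs of number 1 with another number had r below 0, so number 1 was set apart more clearly than 2 from 3. The pairing by replicate number rests on these correlations alone. The alternatives, 21 in all, covered background, scaling, dim and flagged spots, tests, slide row, replicate block, probe choice and arrays left out. The number of arrays limits the precision.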

Additional observations from a re-analysis of the deposited data

How the results depend on the processing

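Hoxa11 stayed the gene called higher, or 1 of those so called, under 17 of 21 alternatives. The number of Hox genes called higher fell to 0 with normexp background correction (Hoxa11 0.82), with no background correction (0.45) and in the ordinary t-test. With saline replicates 2 and 3 left out, Hoxa11 was 1.71 and was not called. The number called higher was 2 with no normalization between arrays and 3 with slide row as a block. Leaving out 1 array at a time gave 1 to 2 called higher and 0 to 2 called lower, a median of -0.53 to 0.092 and 7 to 11 genes whose groups did not overlap. The lowest median came without LPS replicate 1. The genes called lower were Hoxb4 and Hoxb8 without LPS replicate 1, Hoxb4 without saline replicate 1 and Hoxa7 without saline replicate 3. The median was 0.22 with slide row as a block and 0.31 with no normalization, where that of all genes was 0.33. The 7 non-overlapping genes became 2 with dim probes filtered and with no background correction, and 4 after quantile normalization. With the replicate block, the pairing kept 1 Hox gene called higher and 0 lower, and Hoxa11 and Hoxd10 had a limma adjusted p of 0.167. No Hox gene passed an adjusted p of 0.05 in any of the 21. Signs turned for Hoxb7 with no normalization (0.25), with slide row (0.58) and among the fits that left out 1 array (-0.48 to 0.081), and for Hoxb8 with slide row (0.20). They turned for Hoxd4 among those fits (-0.022 to 0.31), and with saline replicates 2 and 3 left out for Hoxc4 (-0.18), Hoxc5 (-0.16), Hoxd4 (-0.047) and Hoxd9 (-0.050). Hoxd9, near 0, also turned with normexp (-0.0083), no background correction (-0.0038), median scaling (-0.052), flagged spots kept (-0.0016), slide row (-0.22) and 1 array left out (-0.077 to 0.11). Over all genes the counts called higher and lower, 145 and 277, became 1 and 245 with normexp and 1293 and 59 with slide row as a block. The cause was not tested for any of these.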

Other observations

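Among the other homeobox genes, Msx1 and Dlx5, which act in limb, craniofacial and uterine development, were highest on the arrays numbered 1, and they are named here after their values were seen. Msx1 gave log2 signals of -1.54, -3.23 and -2.75 on saline replicates 1, 2 and 3 and 0.39, -1.54 and -2.25 on LPS replicates 1, 2 and 3, a difference of 1.38 (SE 0.74). Dlx5 gave -0.94, -3.10 and -3.13 with saline and 0.50, -1.62 and -2.94 with LPS, a difference of 1.03 (SE 0.97). Both were highest on LPS replicate 1 and, within saline, on replicate 1, their groups overlapped and neither was called. Isl1, a LIM homeobox gene of motor neurons and endocrine cells, had LPS values below all saline values without being called, with -3.74, -1.87 and -3.27 against -3.77, -3.91 and -4.23, and its saline value was highest on replicate 2, an array with adrenal transcripts. Of the skeletal muscle markers, Mybpc1 was called lower, with a log2 difference of -1.76 (SE 0.56, limma adjusted p = 0.27). Its higher saline values were those of replicates 2 and 3, the arrays with adrenal transcripts. Its value on saline replicate 1 (0.191) lay close to that on LPS replicate 1 (0.099). Of the 10 skeletal muscle markers with a probe, 6 had a log2 difference above 0, and the median was 0.19. Tcf21, a transcription factor of gonadal stroma, was called higher among the marker genes, with values of -2.76, -3.38 and -2.96 on the saline arrays, all below the highest and lowest LPS values of -1.66 and -2.20, and a log2 difference of 1.08 (SE 0.24, limma adjusted p = 0.271).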
